A study of Mus musculus with 48 samples.

Results

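Isoproterenol, an agonist of beta-adrenergic receptors, was given to primary mouse astrocytes for 90 min, and the poly-A selected RNA of 6 stimulated libraries was compared with that of 6 unstimulated libraries. These 12 libraries, out of 48 in the study, were all those from astroglial cells of mice heterozygous for the Gas*-BERKY3 allele. The allele encodes a luminescent biosensor for active Gas, the G protein alpha subunit that stimulates cAMP synthesis, and the biosensor needs Cre recombinase to be switched on. The 4 groups of 3 libraries were stimulated cells with Cre virus (AAV2/1-CMV-Cre), stimulated cells with empty virus (AAV2/1-CMV-empty), unstimulated cells with Cre virus and unstimulated cells with empty virus. Each well had received 430000 cells and virus at a 500-fold dilution with polybrene. At the start of the 90 min the medium was changed in every well, with 1 µM isoproterenol for stimulated cells and without agonist for unstimulated cells. The genotype, both viruses' promoter and the medium change were thus shared by both states. Replicates carry numbers and no culture or animal in the labels. The error behind each p-value is therefore the one among these libraries, and it may be technical.

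Beta-adrenergic receptors couple to Gas, which activates adenylyl cyclases. The cAMP they make activates protein kinase A (PKA), which phosphorylates the transcription factor CREB, while phosphodiesterases degrade cAMP. In astrocytes, noradrenaline acting through these receptors is known for glycogen breakdown, lactate release and the induction of trophic factors.

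Library totals lay between 16.3 M and 35.9 M counts (M, 1000000 counts). The biosensor transcript was found with Cre virus at 19.1 to 20.9 CPM (counts divided by the library's total and multiplied by 1000000) in stimulated and 24.2 to 27.3 CPM in unstimulated cells, and with empty virus at 0 to 0.183 and 0 to 0.12 CPM. On the first principal component of log2 CPM, with 40.6% of the variance, stimulated libraries lay at 27.8 to 30.7 and unstimulated ones at -33.6 to -24.1. Both unstimulated replicate 2 libraries (-24.1 with Cre virus, -24.2 with empty virus) stood apart from the other 4 (-33.6 to -29.2), on the side of the stimulated libraries, so changes that move by over 1.5-fold without them are also given without them. On the second component (8.69%), replicate 1 with Cre virus stood apart in both states, at 25.9 stimulated and 29.6 unstimulated. These libraries lay at opposite ends of the third component (7.66%), at 27.7 stimulated and -26.1 unstimulated. Of 18 astrocyte markers, 17 reached 10 CPM or more, with Gfap at 3820 and 3890 CPM, Aqp4 at 1210 and 1290 CPM and Aldh1l1 at 645 and 629 CPM (medians, stimulated and unstimulated). The exception was Gjb6, a connexin gene, at 0.719 and 0.338 CPM. Markers of other brain cells were also present: microglial markers summed to 321 to 366 CPM in stimulated and 312 to 350 CPM in unstimulated libraries, those of the oligodendrocyte lineage to 988 to 1140 and 978 to 1190 CPM, and ependymal ones to 377 to 435 and 393 to 431 CPM. Fibroblast and meningeal markers summed to 1470 to 1880 and 1520 to 1920 CPM, and 4 of 6 erythroid markers had no count. Endothelial markers summed to 40.4 to 45.8 and 39.6 to 47.3 CPM, with Tie1 at 0 counts, and those of smooth muscle and pericytes to 1990 to 2230 and 2210 to 2500 CPM. The sums of all these lists overlapped between the states. In such bulk samples, fewer cells of a type and less RNA per cell cannot be told apart.

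With virus as a covariate, 2156 of 18103 genes tested rose (11.9%) and 2126 fell (11.7%) at an adjusted p under 0.05, by edgeR's quasi-likelihood test with Benjamini-Hochberg adjustment. Rises were the larger changes. At least 2-fold rises numbered 452 (2.50%) and at least 2-fold falls 145 (0.801%). In 381 of these rises and 112 of these falls the states did not overlap in CPM. Such separation is therefore usual among genes named for a large change. Past 4-fold the counts were 166 rising and 10 falling, and past 8-fold 70 rising and 1 falling, Arc. Without both unstimulated replicate 2 libraries 1880 genes rose and 1932 fell. Many strong rises began near silence: 183 of the 452 had an unstimulated mean under 1 CPM, as did 36 of the 145 falls. The median unstimulated level was 2.28 CPM for these rises, 5.89 CPM for the 145 falls and 17.4 CPM for all genes tested. Genes almost silent without isoproterenol could pass the count filter through stimulated libraries and could hardly fall. A lower start of the rises was thus in part built in.

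The largest rises were in genes of several kinds, among them neuropeptide precursors, a hormone receptor, a Ras-like GTPase and transcription factors. In the sentences that follow, 3 values per state are the lowest, the median and the highest of its 6 libraries, and log2 changes are stimulated over unstimulated with their standard error (SE). Cartpt, which encodes the precursor of the CART neuropeptide, stood at 18, 20.8 and 22.3 CPM in stimulated libraries, against 0.0868, 0.109 and 0.241 CPM in unstimulated libraries (log2 change 7.41 ± 0.34, edgeR adjusted p = 1.11e-29). Rasd1, a Ras-like GTPase gene that glucocorticoids are known to induce, stood at 94.6, 104 and 116 CPM in stimulated libraries, against 0.674, 1.2 and 2.05 CPM in unstimulated libraries (log2 change 6.38 ± 0.18, edgeR adjusted p = 2.05e-16). Nr4a2, an orphan nuclear receptor gene, stood at 451, 452 and 486 CPM in stimulated libraries, against 4.97, 7.4 and 40.6 CPM in unstimulated libraries (log2 change 4.89 ± 0.48, edgeR adjusted p = 4.05e-05). In all 3 genes every stimulated library was above every unstimulated one. The unstimulated spread of Nr4a2 came from 2 libraries, replicate 2 with Cre virus at 30.9 CPM and replicate 2 with empty virus at 40.6 CPM, and without both its log2 change was 6.20 (adjusted p = 2.56e-39), a fold more than 1.5 times as large. Trh, the thyrotropin-releasing hormone precursor, stood at 8.5, 9.29 and 12.6 CPM in stimulated libraries, against 0, 0.0942 and 0.782 CPM in unstimulated libraries (log2 change 5.91 ± 0.51, edgeR adjusted p = 1.31e-10). Epn3, of the epsin family of endocytic adaptors, stood at 16.5, 18.5 and 19.4 CPM in stimulated libraries, against 0.0613, 0.365 and 1.08 CPM in unstimulated libraries (log2 change 5.07 ± 0.31, edgeR adjusted p = 7.06e-11). Both genes were near or under 1 CPM in every unstimulated library, and the replicate 2 libraries were again the highest. Without both, the log2 change was 7.19 in Trh and 5.96 in Epn3. For Trh, replicate 2 with empty virus held 0.782 CPM against 0 to 0.126 CPM in the other 5 unstimulated libraries, and without that library alone the log2 change was 6.93.

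Ghsr, the ghrelin receptor, had 640 counts over the 6 stimulated libraries and 2 over the 6 unstimulated ones, a ratio of 323 (95% interval 89 to 2670, counting error only), and the unstimulated counts were found in the replicate 2 libraries alone. C2cd4b had 354 stimulated and 2 unstimulated counts, the unstimulated ones all in replicate 1 with Cre virus, a ratio of 179 (49.1 to 1480), and it shares exon sequence with another annotated gene, so its count is uncertain. The other named rises were of genes that stayed under 1 CPM in every unstimulated library. They were Pax9, a paired-box transcription factor (5.57 ± 0.34), Crhbp, a secreted protein that binds corticotropin-releasing hormone (5.31 ± 0.44), Klf14 (5.02 ± 0.56), Ucp1, the uncoupling protein of brown fat (4.87 ± 0.55), Pcsk1, which cleaves prohormones (4.78 ± 0.24), Slc30a3, a vesicular zinc transporter (4.56 ± 0.5), Sst, the somatostatin precursor (4.54 ± 0.48), Fgf23 (4.26 ± 0.47) and Fgf15 (4.15 ± 0.47). Pax9 overlaps exons of Slc25a21, which had a log2 change of -0.05, and Fgf15 those of a predicted gene that rose by 3.85, so the reads of that pair cannot be told apart. Without both unstimulated replicate 2 libraries Klf14 had a log2 change of 6.06 and Slc30a3 one of 5.18, and without unstimulated replicate 2 with empty virus alone Klf14 had 5.76. Without unstimulated replicate 3 with Cre virus Fgf15 had 4.78. In stimulated libraries Pcsk1 was the highest of these 9 genes, at 8.6 to 12.3 CPM, and Fgf23 had the lowest single value, 1.22 CPM.

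**Figure D1:**
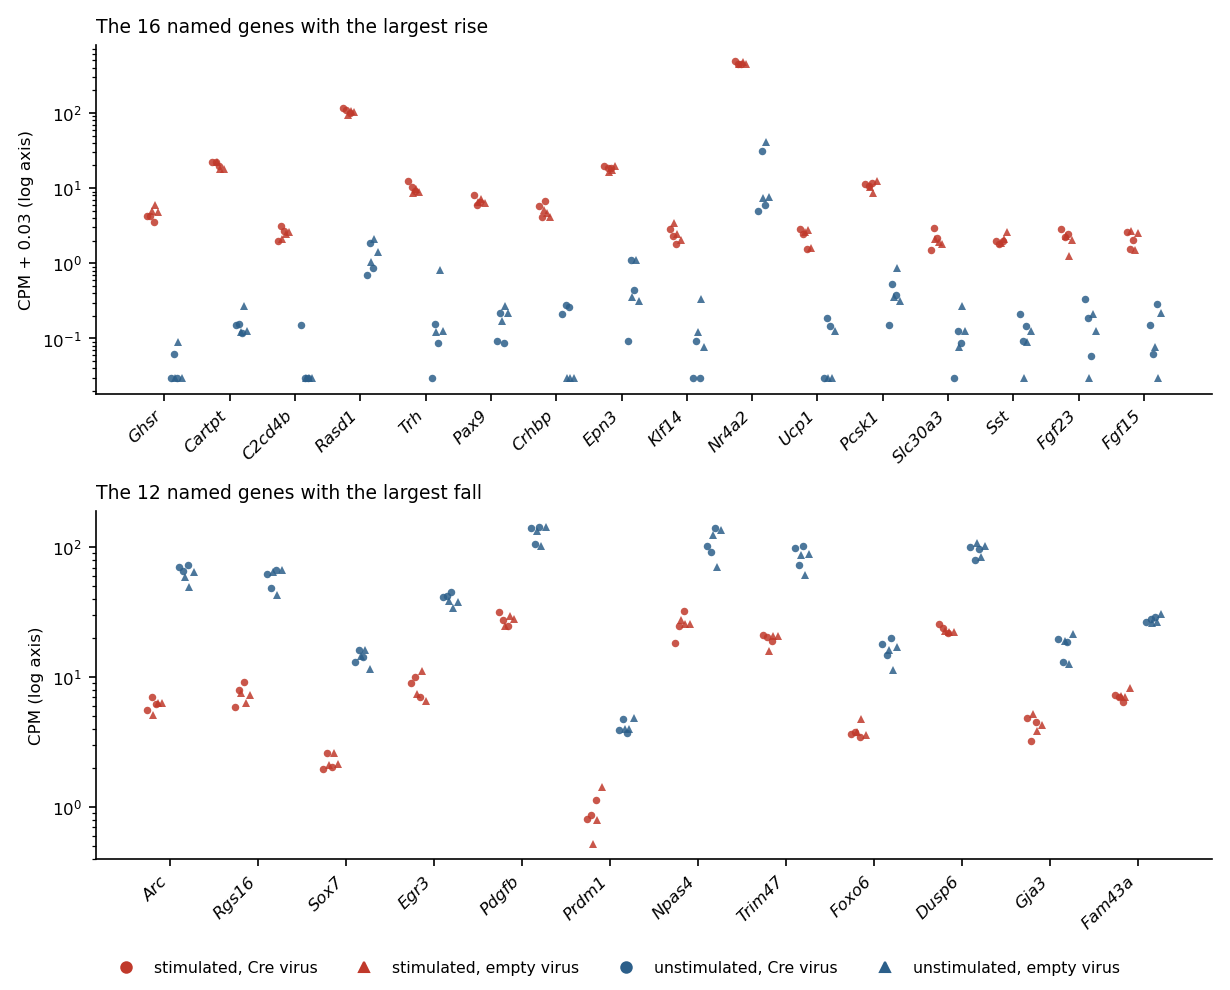
Level in each of the 12 libraries (CPM, log axis; 0.03 added in the upper panel so that values of 0 can be drawn) for the 16 named genes with the largest rises and the 12 with the largest falls. Red points are stimulated and blue points unstimulated libraries, circles Cre virus and triangles empty virus. The 28 genes were chosen for their large change, and in none do the 2 colours overlap. Over all changes of at least 2-fold, the states did not overlap in 381 of 452 rises and 112 of 145 falls. The 2 raised unstimulated points of Nr4a2, at 30.9 and 40.6 CPM, are the replicate 2 libraries.

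The falls were smaller and began from higher levels than the rises, a contrast that the count filter sets in part. Arc, an immediate early gene whose product regulates receptor traffic at synapses, stood at 5.09, 6.28 and 7.09 CPM in stimulated libraries, against 49.8, 64.9 and 73.6 CPM in unstimulated libraries (log2 change -3.32 ± 0.08, edgeR adjusted p = 2.43e-28). Rgs16, a GTPase activator that shuts off Gi and Gq subunits and shares exon sequence with a predicted gene, stood at 5.94, 7.47 and 9.27 CPM in stimulated libraries, against 42.8, 63.4 and 67 CPM in unstimulated libraries (log2 change -2.93 ± 0.16, edgeR adjusted p = 5.76e-08). Pdgfb, a growth factor gene, stood at 24.9, 27.8 and 31.6 CPM in stimulated libraries, against 103, 138 and 143 CPM in unstimulated libraries (log2 change -2.16 ± 0.11, edgeR adjusted p = 5.42e-08). The states did not overlap in these genes or in the other 9 of the 12 named falls, which were chosen for their large change. These 9 were the transcription factor genes Sox7 (-2.62 ± 0.12), Egr3 (-2.19 ± 0.09), Prdm1 (-2.08 ± 0.2), Npas4 (-2.06 ± 0.2) and Foxo6 (-2.04 ± 0.12), the ubiquitin ligase family gene Trim47 (-2.05 ± 0.13), the ERK phosphatase Dusp6 (-1.99 ± 0.07), the connexin Gja3 (-1.97 ± 0.14) and Fam43a (-1.89 ± 0.08). Trim47 overlaps exons of Trim65, which had a log2 change of -0.06.

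Promoters are shown for 6 genes that rose and hold a full cAMP response element, TGACGTCA, the palindrome that CREB is known to bind, and for Rgs16, the gene with the largest fall among those with an entry. Each is the 250 bases before the RefSeq start on GRCm38.p6, 5′ to 3′ on the gene's strand, with the full element and the shorter site TGACG or its reverse complement CGTCA in capitals. The full element contains the shorter site on both strands.
Cartpt (chr13:99900684-99900933, minus strand): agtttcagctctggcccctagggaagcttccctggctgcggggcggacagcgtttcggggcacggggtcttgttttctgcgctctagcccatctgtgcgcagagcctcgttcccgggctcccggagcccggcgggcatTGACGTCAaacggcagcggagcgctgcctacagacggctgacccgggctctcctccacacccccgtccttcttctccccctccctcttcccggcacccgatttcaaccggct
Pcsk1 (chr13:75089607-75089856, plus strand): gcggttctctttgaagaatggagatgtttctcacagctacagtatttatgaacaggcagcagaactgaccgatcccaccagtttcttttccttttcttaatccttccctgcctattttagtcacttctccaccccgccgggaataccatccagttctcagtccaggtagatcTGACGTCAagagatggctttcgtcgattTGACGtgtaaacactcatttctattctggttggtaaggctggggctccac
Sst (chr16:23890845-23891094, minus strand): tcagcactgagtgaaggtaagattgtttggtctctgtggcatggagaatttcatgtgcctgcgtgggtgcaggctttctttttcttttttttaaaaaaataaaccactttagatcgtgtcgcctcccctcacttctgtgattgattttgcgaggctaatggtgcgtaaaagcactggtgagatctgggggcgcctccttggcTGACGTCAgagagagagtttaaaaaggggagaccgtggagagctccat
Areg (chr5:91139349-91139598, plus strand): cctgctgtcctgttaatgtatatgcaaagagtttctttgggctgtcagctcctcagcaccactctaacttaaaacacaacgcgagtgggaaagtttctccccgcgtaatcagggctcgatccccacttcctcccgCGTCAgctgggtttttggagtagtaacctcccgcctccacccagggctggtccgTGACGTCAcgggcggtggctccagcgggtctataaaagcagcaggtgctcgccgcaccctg
Scg2 (chr1:79440027-79440276, minus strand): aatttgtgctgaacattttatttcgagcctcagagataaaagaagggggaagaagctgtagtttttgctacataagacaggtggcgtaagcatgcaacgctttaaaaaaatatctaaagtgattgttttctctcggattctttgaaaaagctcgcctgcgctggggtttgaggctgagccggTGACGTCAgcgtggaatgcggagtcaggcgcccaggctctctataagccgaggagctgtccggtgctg
Dusp1 (chr17:26508473-26508722, minus strand): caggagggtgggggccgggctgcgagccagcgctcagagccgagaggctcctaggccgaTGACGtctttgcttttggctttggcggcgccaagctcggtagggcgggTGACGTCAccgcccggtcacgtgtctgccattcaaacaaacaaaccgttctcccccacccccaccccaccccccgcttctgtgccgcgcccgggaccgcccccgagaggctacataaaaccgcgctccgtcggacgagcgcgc
Rgs16 (chr1:153740103-153740352, plus strand): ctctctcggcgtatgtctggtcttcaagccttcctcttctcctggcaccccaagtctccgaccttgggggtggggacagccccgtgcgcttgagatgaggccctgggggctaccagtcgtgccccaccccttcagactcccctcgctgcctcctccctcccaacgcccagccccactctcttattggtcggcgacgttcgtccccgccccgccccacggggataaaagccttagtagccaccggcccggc

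The full element began 112 bases upstream of the start in Cartpt, 78 in Pcsk1, 48 in Sst, 61 in Areg, 68 in Scg2 and 143 in Dusp1. Pcsk1, Areg and Dusp1 each hold a further short site outside it, and the Rgs16 stretch holds neither motif. The 6 genes were picked for holding the element, by fold change among the largest rises and the listed cAMP targets. They do not stand for the rises as a whole, since Ghsr, Nr4a2 and Fos, among others, rose without a full element in their promoter. RefSeq promoters, read from 250 bases before to 50 after the start, could be matched to 12547 of the 18103 genes tested (69.3%). With fewer than 80% matched, a comparison of motif shares between the classes of genes is void, and the shares describe the matched genes only. The full element stood in 32 of 321 matched genes that rose at least 2-fold (9.97%), 77 of 1249 that rose by less (6.16%), 4 of 94 that fell at least 2-fold (4.26%), 23 of 1552 that fell by less (1.48%), 276 of 9331 that were not called (2.96%) and 3.28% of all genes matched. A short site stood in 49.8%, 43.9%, 21.3%, 30.3%, 31.2% and 32.7% of the same sets, on either strand and full elements included. The CArG box, the sequence bound by serum response factor (SRF), stood in 0.312%, 1.6%, 8.51%, 2.38%, 1.36% and 1.54%. Counted per promoter and not per gene, the shares over all 32851 promoters in the table were 1.79% for the full element, 20.8% for the short site and 1.63% for the CArG box. A match of letters is a description and not evidence of binding.

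Within the pathway that isoproterenol acts on, the receptor genes moved in both directions. Of 8 adrenergic receptor genes tested, 3 rose and 2 fell, with a median log2 change of -0.27 against 0 over all genes. Adrb1, the beta-1 receptor, stood at 24.7, 26.4 and 29.9 CPM in stimulated libraries, against 53.5, 69.3 and 84 CPM in unstimulated libraries (log2 change -1.33 ± 0.1, edgeR adjusted p = 1.03e-07). Adrb3, the beta-3 receptor, which overlaps exons of a predicted gene that did not change, stood at 5.25, 6.07 and 7.5 CPM in stimulated libraries, against 2.57, 2.93 and 3.67 CPM in unstimulated libraries (log2 change 1.12 ± 0.13, edgeR adjusted p = 7.45e-09). Neither receptor overlapped between the states. Among alpha-1 receptors, which couple to Gq, Adra1a rose (0.78 ± 0.07), Adra1d fell (-1.05 ± 0.09), and Adra1b had a log2 change of 0.00 ± 0.1 (adjusted p = 0.997). The small rise of Adra2a, an alpha-2 receptor that couples to Gi (0.18 ± 0.06, adjusted p = 0.0255), was lost under 5 of the alternative fits.

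Of 18 genes in the list of cyclic nucleotide phosphodiesterases, which degrade cAMP or cGMP, 7 rose and 1 fell. Of 11 Gs, Golf and cyclase genes, shares near the 11.9% and 11.7% of all genes were called: 2 rose, Gnas (0.11 ± 0.03) and Adcy5 (0.27 ± 0.07), and 1 fell, Adcy6 (-0.26 ± 0.05). Pde4d, a cAMP-specific phosphodiesterase, stood at 221, 243 and 260 CPM in stimulated libraries, against 24.4, 27.7 and 52.7 CPM in unstimulated libraries (log2 change 2.91 ± 0.19, edgeR adjusted p = 1.49e-06). Pde10a, which degrades both cAMP and cGMP, stood at 78.9, 106 and 139 CPM in stimulated libraries, against 31.1, 33.6 and 48.9 CPM in unstimulated libraries (log2 change 1.6 ± 0.19, edgeR adjusted p = 0.000128). Every stimulated library was above every unstimulated one in both, and the 2 highest unstimulated libraries of each were again replicate 2. Without them Pde4d had a log2 change of 3.25 and Pde10a one of 1.77. The other rises were Pde4b (0.87 ± 0.11), Pde8a (0.75 ± 0.13), Pde3b (0.63 ± 0.07), Pde7a (0.59 ± 0.06) and Pde4a (0.38 ± 0.07), all of enzymes that hydrolyse cAMP. The gene that fell was Pde1b, a calmodulin-dependent phosphodiesterase (-0.38 ± 0.05).

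**Figure D2:**
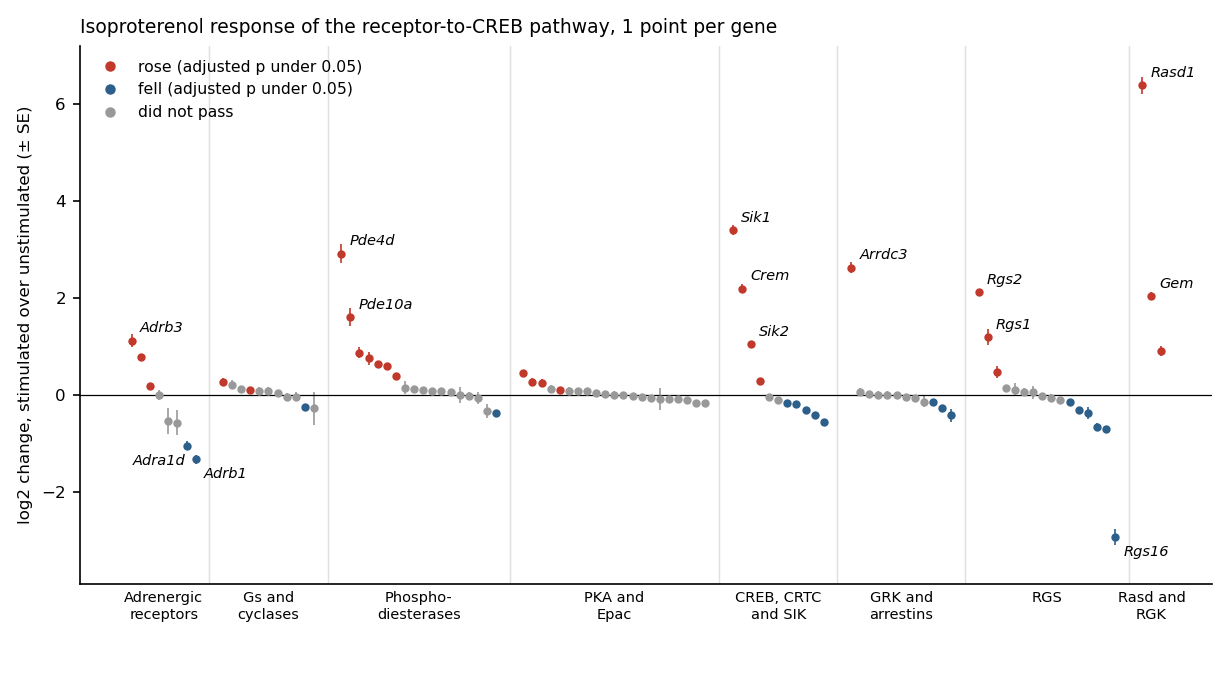
Log2 change, stimulated over unstimulated (y axis, bars ± SE of the fit), of tested genes of 8 lists of the receptor-to-CREB pathway (x axis, sorted within a list). Each tested gene is drawn, except in the Rasd and RGK list, where only the 3 of 4 that rose are drawn. Red points rose, blue points fell and grey points did not pass; the largest values were 6.38 for Rasd1 and -2.93 for Rgs16, and the PKA list lay between 0.45 for Prkar2a and -0.17 for Akap7, which did not pass.

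Of 21 genes for PKA subunits, inhibitors and anchors and for Epac, the cAMP-activated exchange factors, 4 rose and none fell by edgeR. Over all genes tested, 11.9% rose and 11.7% fell. In the list, 4 genes had a negative change at an unadjusted edgeR p under 0.05, and 2 fell by DESeq2. The largest rise was that of the regulatory subunit Prkar2a, at a median of 122 CPM (122 to 131) in stimulated libraries, against 92.7 CPM (89 to 101) in unstimulated libraries (log2 change 0.45 ± 0.04, edgeR adjusted p = 8.5e-12). Of the other rises, Rapgef4 lost its call under 2 of the alternative fits, and Prkar1a and Akap5 under 1 each. The catalytic subunits Prkaca and Prkacb had log2 changes of 0.07 ± 0.04 and -0.02 ± 0.04 and did not pass. Downstream, 4 of 11 genes for CREB factors, their coactivators and SIK kinases rose and 5 fell. Sik1, a kinase that phosphorylates and so retains CREB coactivators in the cytoplasm, stood at 239, 262 and 275 CPM in stimulated libraries, against 19.4, 24.3 and 33.2 CPM in unstimulated libraries (log2 change 3.4 ± 0.11, edgeR adjusted p = 2.68e-09). Crem, whose short product ICER represses cAMP-responsive promoters, stood at 90.7, 100 and 116 CPM in stimulated libraries, against 18.7, 22.1 and 28.5 CPM in unstimulated libraries (log2 change 2.19 ± 0.1, edgeR adjusted p = 1.16e-09). The gene counts do not separate the products of Crem, which also shares exon sequence with a predicted gene that rose by 2.46. Sik2 (1.05 ± 0.05) and Sik3 (0.29 ± 0.05) rose as well, and the 5 that fell were Creb1 itself (-0.41 ± 0.05), its relative Atf1 (-0.32 ± 0.06), the coactivators Crtc3 (-0.56 ± 0.05) and Crtc1 (-0.18 ± 0.05), and the acetyltransferase Ep300 (-0.17 ± 0.05).

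Genes that act on the receptor or the G protein also moved in both directions. Of 12 receptor kinase and arrestin genes, 1 rose and 3 fell, against 11.9% rising and 11.7% falling over all genes tested. Among the falls, Grk3 (-0.15 ± 0.05) lost its call under 8 of the alternative fits. The one that rose was Arrdc3, of the alpha-arrestin family, at 253, 267 and 287 CPM in stimulated libraries, against 36.1, 40.9 and 60.7 CPM in unstimulated libraries (log2 change 2.62 ± 0.11, edgeR adjusted p = 3.66e-08). Its relatives Arrdc2 (-0.42 ± 0.13, not called without unstimulated replicate 2 with empty virus) and Arrdc4 (-0.28 ± 0.07) fell, while the beta-arrestins Arrb1 (0.02 ± 0.05) and Arrb2 (0.00 ± 0.07) did not pass. Of 16 RGS genes, whose products speed the shut-off of G proteins, 3 rose and 6 fell. Rgs2, which acts mainly on Gq, stood at 174, 180 and 196 CPM in stimulated libraries, against 37.5, 44.1 and 48.4 CPM in unstimulated libraries (log2 change 2.12 ± 0.04, edgeR adjusted p = 4.7e-30), and Rgs1 rose by 1.19 ± 0.17. Besides Rgs16 the falls included Rgs3 (-0.71 ± 0.07) and Rgs8 (-0.66 ± 0.08). Of 4 Rasd and RGK GTPases, 3 rose: Rasd1, Gem (2.04 ± 0.08) and Rrad (0.9 ± 0.1), the last 2 known as inhibitors of voltage-gated calcium channels.

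**Figure D3:**
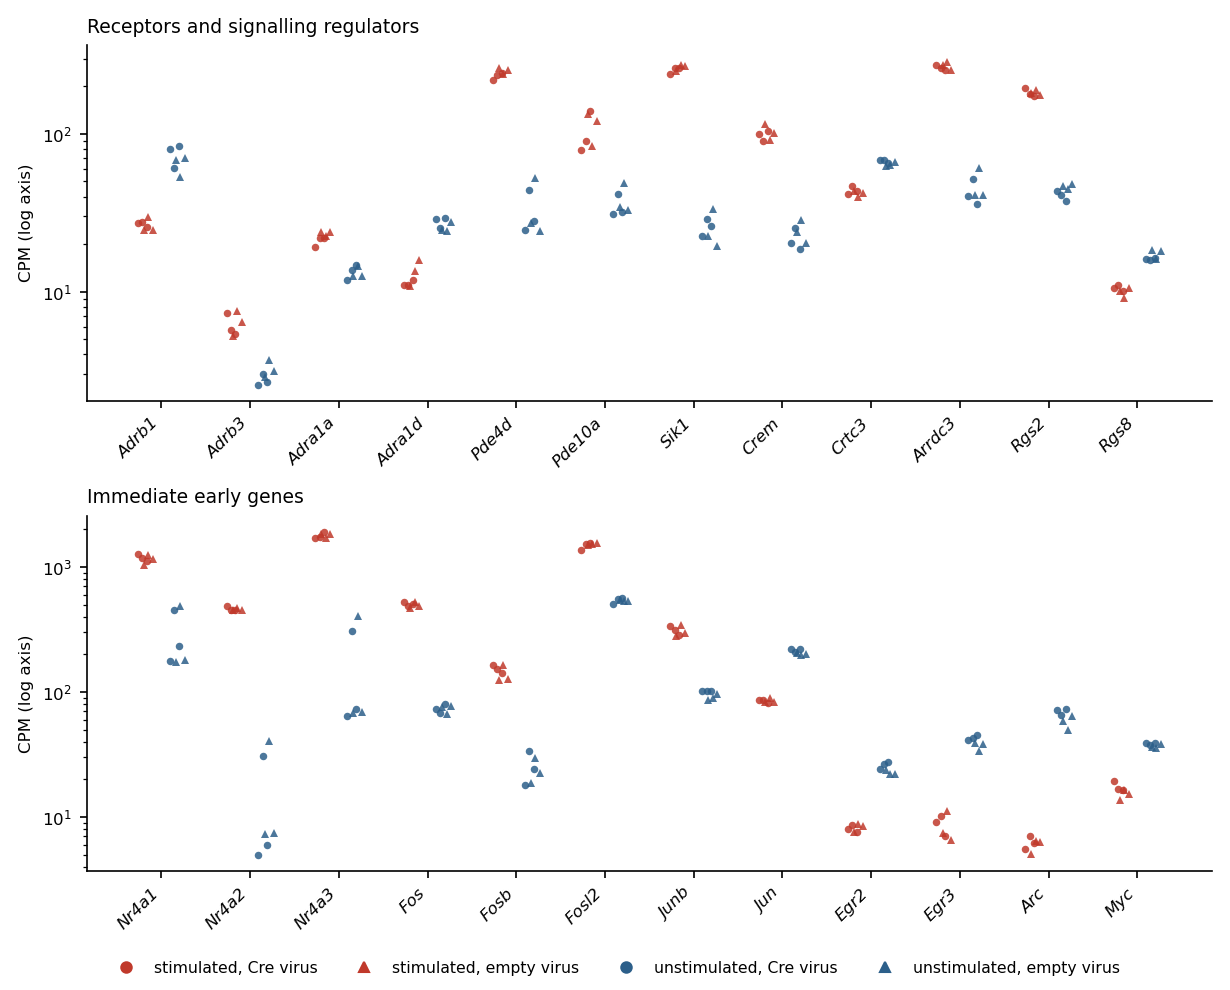
Level in each of the 12 libraries (CPM, log axis) of 12 receptor and signalling genes (upper panel) and 12 immediate early genes (lower panel). Red points are stimulated and blue points unstimulated libraries, circles Cre virus and triangles empty virus; Sik1 lay at 239 to 275 CPM stimulated against 19.4 to 33.2 CPM unstimulated, and Arc at 5.09 to 7.09 against 49.8 to 73.6 CPM.

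Of 32 textbook targets of cAMP and CREB, 29 rose, 26 of them at least 2-fold, and 1 fell, with a median log2 change of 2.12 against 0 over all genes. The list was chosen with results of these cells known, and several members stand in other lists too. Some, such as Cartpt and Sst, passed the count filter through stimulated libraries alone and could only be called by rising. Fos stood at 472, 495 and 526 CPM in stimulated libraries, against 66.2, 74.9 and 80.4 CPM in unstimulated libraries (log2 change 2.81 ± 0.04, edgeR adjusted p = 1.04e-32). Nr4a3, an orphan nuclear receptor gene, stood at 1700, 1790 and 1910 CPM in stimulated libraries, against 64.9, 71.4 and 403 CPM in unstimulated libraries (log2 change 3.51 ± 0.53, edgeR adjusted p = 0.00134). Nr4a1, of the same family, stood at 1030, 1180 and 1270 CPM in stimulated libraries, against 174, 206 and 488 CPM in unstimulated libraries (log2 change 2.09 ± 0.3, edgeR adjusted p = 0.000722). The states did not overlap in these genes, although unstimulated replicate 2 held 308 CPM of Nr4a3 with Cre virus and 403 CPM with empty virus, and 454 and 488 CPM of Nr4a1. Without both libraries the log2 changes were 4.75 in Nr4a3 (adjusted p = 2.56e-39) and 2.66 in Nr4a1 (adjusted p = 2.86e-09), and without replicate 2 with empty virus alone Nr4a3 had 4.10. Other members were Per1, a clock gene (1.96 ± 0.11), Dusp1, a MAP kinase phosphatase whose exons overlap Ergic1 (2.07 ± 0.04), Irs2, an insulin receptor substrate (1.55 ± 0.04), the bZIP factors Nfil3 (2.16 ± 0.06) and Cebpb (2.14 ± 0.06), Ppargc1a, the PGC-1 alpha coactivator (1.07 ± 0.09), and Areg, amphiregulin (3.13 ± 0.31). The member that fell was Per2 (-0.75), and Star (-0.11) and Id2 (-0.03) did not pass.

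Immediate early genes, which serum and neuronal activity are known to raise together, were divided: 16 of 30 rose and 12 fell, with a median of 0.24. The AP-1 genes Fosb (2.61 ± 0.15), Fosl2 (1.53 ± 0.04), Junb (1.73 ± 0.05) and Maff (1.97 ± 0.04) rose, as did Ier3 (2.49 ± 0.06), Btg2 (1.66 ± 0.05), Homer1 (1.33 ± 0.06) and Csrnp1 (1.17 ± 0.04). Jun, the AP-1 partner of Fos, instead stood at 81.6, 84.3 and 90 CPM in stimulated libraries, against 199, 208 and 220 CPM in unstimulated libraries (log2 change -1.25 ± 0.04, edgeR adjusted p = 1.06e-25). All 4 Egr genes fell, Egr1 by 0.89, Egr2 by 1.52, Egr3 by 2.19 and Egr4 by 0.46 on the log2 scale. Myc (-1.16 ± 0.06) and Srf (-1.01 ± 0.05) fell with them. Kruppel-like factors were divided too, with 5 of 15 rising and 8 falling. Klf4 stood at 322, 343 and 371 CPM in stimulated libraries, against 29.1, 34 and 41.5 CPM in unstimulated libraries (log2 change 3.34 ± 0.08, edgeR adjusted p = 2.94e-11), while Klf6 (-1.1 ± 0.04), Klf7 (-1.29 ± 0.05) and Klf10 (-1.44 ± 0.05) fell. Of 18 genes listed as ERK feedback inhibitors, 9 rose and 4 fell. Spry2 rose by 1.61 ± 0.04, Dusp14 by 1.38 ± 0.05 and Dusp10 by 1.33 ± 0.1, whereas Dusp6, Spry1 (-0.53), Spry4 (-0.3) and Spred1 (-0.28) fell. The list also holds Dusp1, counted above as a cAMP target, and whether ERK acted on its members was not tested. Among 31 targets of SRF and its MRTF coactivators, 19 fell and 3 rose (median -0.18). Vcl, vinculin, stood at 255, 259 and 270 CPM in stimulated libraries, against 451, 580 and 595 CPM in unstimulated libraries (log2 change -1.01 ± 0.07, edgeR adjusted p = 4.18e-07), and its exons overlap Ap3m1, which had a log2 change of 0.04. The 3 that rose were Thbs1 (1.08 ± 0.05), Cnn1 (0.94 ± 0.04) and Tpm4 (0.44).

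**Figure D4:**
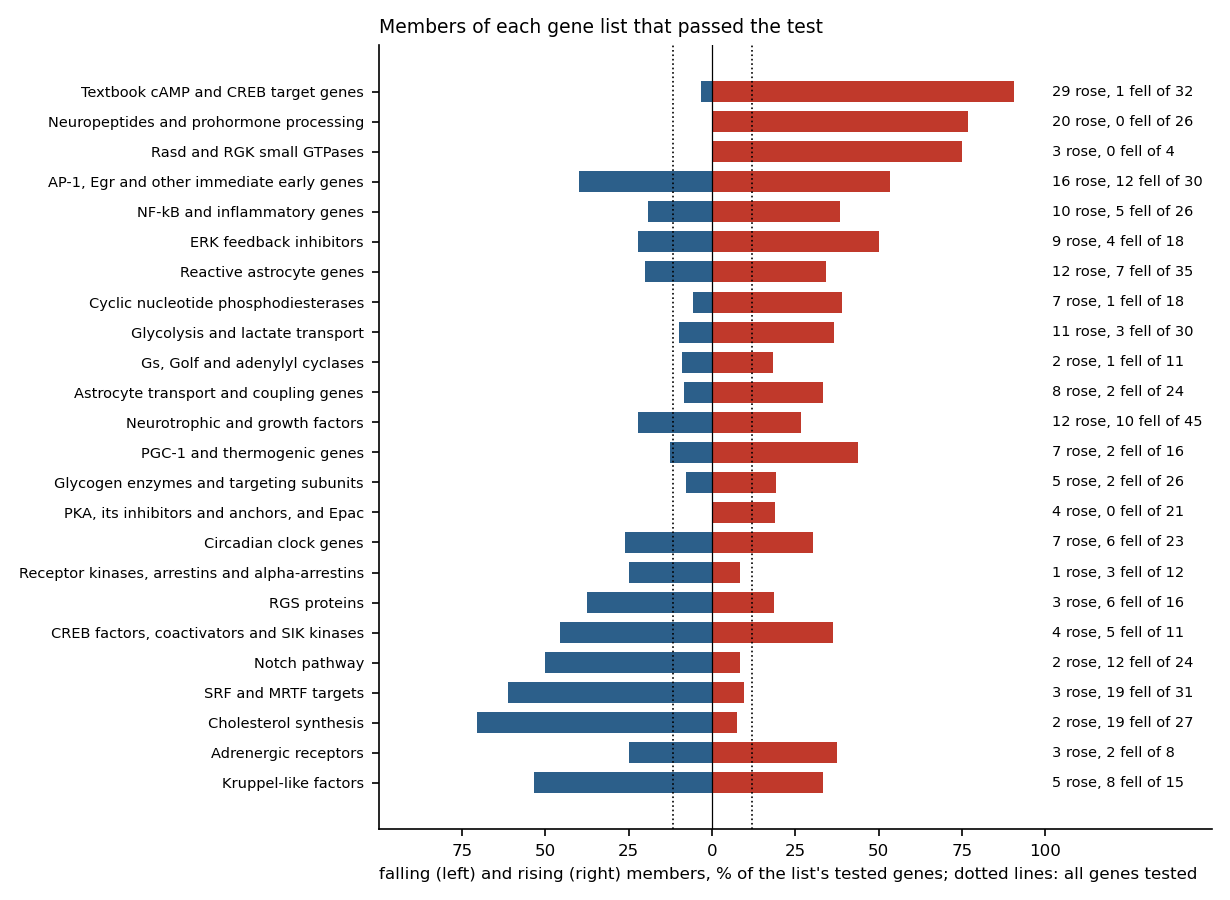
Share of the tested members of each of the 24 gene lists that fell (blue, to the left) or rose (red, to the right) at an adjusted p under 0.05, in percent, with the counts beside each bar. Dotted lines mark the shares over all genes tested, 11.7% falling and 11.9% rising; lists are sorted by median log2 change, from the textbook cAMP targets (29 of 32 rose) to the Kruppel-like factors (8 of 15 fell).

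Neuropeptide and prohormone processing genes rose in 20 of 26 cases, 15 of them at least 2-fold, with a median log2 change of 2.10. None fell by edgeR, at an unadjusted p under 0.05 (0), or by DESeq2. Of the 39 genes listed, 13 were too low to be tested. The list was chosen with results of these cells known. Members almost silent in unstimulated libraries, such as Tac1 (6 counts) and Calcb (7 counts), passed the count filter through stimulated libraries alone. Such members could only be called by rising, so the absence of falls among them was fixed in advance. Besides Cartpt, Trh and Sst, the precursor genes Crh (3.37 ± 0.25), Vgf (2.11 ± 0.06), Penk (2.09 ± 0.21), Calcb (5.09 ± 0.68), Tac1 (4.56 ± 0.76), Calca (1.09 ± 0.17), Nmu (3.47 ± 0.71) and Cck (2.12 ± 0.54) rose. Ucn, the urocortin precursor, had 161 counts stimulated and 1 unstimulated, in replicate 2 with empty virus, a ratio of 162 (28.7 to 6460). The log2 change was 6.16 for Tac1 without unstimulated replicate 2 with Cre virus and 6.05 without both replicate 2 libraries. Without unstimulated replicate 1 with empty virus it was 6.46 for Calcb and 4.08 for Nmu. Of these, Vgf had the most reads, with a median of 371 CPM (347 to 411) in stimulated libraries, against 91.9 CPM (73.7 to 100) in unstimulated libraries. The granins Scg2 and Chgb encode proteins of dense-core vesicles. Scg2 stood at 120, 127 and 134 CPM in stimulated libraries, against 12.6, 14.7 and 31.5 CPM in unstimulated libraries (log2 change 2.87 ± 0.21, edgeR adjusted p = 3.14e-06), and Chgb at 85.1, 87.1 and 90.9 CPM in stimulated libraries, against 12.4, 17 and 20.8 CPM in unstimulated libraries (log2 change 2.43 ± 0.09, edgeR adjusted p = 5.63e-13). Processing enzymes other than Pcsk1 changed little, with Cpe at 0.13, Pam at 0.17 and Pcsk2 at -0.06 (not passed). Neuron markers as a list summed to 558 to 594 CPM in stimulated and 548 to 596 CPM in unstimulated libraries, and 3 of 12 rose: Gad1, which makes GABA, at a median of 14.8 CPM (14.2 to 16.2) in stimulated libraries, against 4.19 CPM (3.43 to 4.9) in unstimulated libraries, Nefl, a neurofilament gene whose exons overlap Nefm (3.05 ± 0.26), and Tubb3 (0.17 ± 0.05). Among the 13 markers in the files, 5 reached 10 CPM, including Map2 (384 and 402 CPM, medians), Stmn2 (92.6 and 91.1 CPM) and Dcx (20.8 and 21.7 CPM), and 3 were under 1 CPM, including Slc17a6 (0.0418 and 0 CPM) and Rbfox3 (0.427 and 0.375 CPM). The part of neurons in the peptide rises was not tested beyond these values.

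Secreted factors of other kinds went both ways, 12 of 45 neurotrophic and growth factor genes rising and 10 falling. Gdnf, the glial cell line-derived neurotrophic factor, stood at 9.47, 10 and 10.9 CPM in stimulated libraries, against 1.67, 2.08 and 2.58 CPM in unstimulated libraries (log2 change 2.3 ± 0.12, edgeR adjusted p = 2.01e-18). Il11, a cytokine gene of the Il6 family, stood at 47.3, 56.2 and 70.3 CPM in stimulated libraries, against 2.76, 4.72 and 6.14 CPM in unstimulated libraries (log2 change 3.67 ± 0.17, edgeR adjusted p = 7.68e-09). Hbegf, an EGF receptor ligand, stood at 234, 246 and 263 CPM in stimulated libraries, against 583, 664 and 705 CPM in unstimulated libraries (log2 change -1.36 ± 0.04, edgeR adjusted p = 4.16e-22). Cytokines of 1 family thus moved apart, since Il6 (3.33 ± 0.32) and Il11 rose and Lif fell (-1.18 ± 0.1), and so did EGF receptor ligands, with Areg rising and Hbegf and Ereg (-1.17 ± 0.15) falling. Fgf2, which overlaps exons of Nudt6 (1.01 ± 0.06), Fgf7 (1.77 ± 0.15) and Bdnf (0.93) rose, and Vegfa (-0.73) fell with Pdgfb.

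Of 26 glycogen genes 5 rose and 2 fell, against 11.9% and 11.7% of all genes tested, and the largest rises were of Ppp1r3c and Ppp1r3g, subunits that bring protein phosphatase 1 to glycogen. Ppp1r3c stood at 171, 181 and 194 CPM in stimulated libraries, against 56.5, 61.1 and 86.6 CPM in unstimulated libraries (log2 change 1.5 ± 0.11, edgeR adjusted p = 3.61e-06). Ppp1r3g, with fewer reads, stood at 4.01, 4.86 and 5.33 CPM in stimulated libraries, against 0.289, 0.471 and 0.629 CPM in unstimulated libraries (log2 change 3.4 ± 0.22, edgeR adjusted p = 1.07e-16). The brain glycogen phosphorylase Pygb rose by 0.27 ± 0.03, while glycogen synthase Gys1 had a log2 change of 0.02 and did not pass. Of 30 genes of glycolysis and lactate transport 11 rose and 3 fell: the glucose transporters Slc2a1 (0.73 ± 0.04) and Slc2a3 (0.67 ± 0.04) and the lactate transporter Slc16a3 (0.75) rose, and Pfkfb3, an activator of glycolysis, fell (-0.56 ± 0.04). Of 16 PGC-1 and thermogenic genes 7 rose and 2 fell. Dio2, the deiodinase that activates thyroid hormone, stood at 131, 156 and 170 CPM in stimulated libraries, against 8.71, 10.5 and 22.3 CPM in unstimulated libraries (log2 change 3.6 ± 0.21, edgeR adjusted p = 5.17e-07), with the replicate 2 libraries the highest of the unstimulated ones and a log2 change of 4.01 without them. Ppargc1b (3.13 ± 0.14) and Cidea (1.71 ± 0.13) rose with Ucp1, and Prdm16 had a log2 change of 0.00 and did not pass.

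Clock genes were split, 7 of 23 rising and 6 falling. Bmal1, a positive arm of the clock, stood at 23.5, 25.5 and 26.9 CPM in stimulated libraries, against 49.5, 56.9 and 61.6 CPM in unstimulated libraries (log2 change -1.09 ± 0.06, edgeR adjusted p = 2.27e-18), and Ciart, a repressor in the same loop, fell as well (-1.54 ± 0.15), while Usp2 (2.32 ± 0.14) and Rorb (1.52 ± 0.23) rose with Per1 and Nfil3. Of 27 cholesterol synthesis genes 19 fell and 2 rose (median -0.22). Among the falls was Sc5d, a sterol desaturase (-0.34 ± 0.04), and the 2 that rose were neighbours in the route, the mevalonate kinase Mvk (1.03 ± 0.05) and the phosphomevalonate kinase Pmvk. Pmvk stood at 122, 139 and 151 CPM in stimulated libraries, against 38.9, 43.7 and 47.9 CPM in unstimulated libraries (log2 change 1.71 ± 0.06, edgeR adjusted p = 3.84e-16). Of 24 Notch pathway genes 12 fell and 2 rose, among the falls the receptor Notch1 (-1.02 ± 0.06), its modifier Lfng (-1.53 ± 0.07), the ligand Jag1 (-0.67 ± 0.05) and the targets Hes5 (-1.04 ± 0.14) and Hes1 (-0.6). The targets Hey1 (0.37) and Nrarp (0.35) rose.

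Inflammatory genes rose in 10 of 26 cases and fell in 5. Ptgs2, cyclooxygenase 2, stood at 630, 637 and 670 CPM in stimulated libraries, against 42.1, 55.1 and 65.9 CPM in unstimulated libraries (log2 change 3.59 ± 0.09, edgeR adjusted p = 2.58e-10). Il1b (3.75 ± 0.41), Cxcl1 (1.98 ± 0.25) and the NF-kB inhibitor Nfkbie (1.68 ± 0.07) rose, while Tnf (-0.7), Tnfaip3 (-0.51), Nfkbiz (-0.98) and Irf1 (-1.5 ± 0.07) fell. Of 14 microglial and macrophage markers, C1qa, C1qb and C1qc rose by 0.16 to 0.2 on the log2 scale and Cx3cr1 fell (-0.18 ± 0.06), and their part in the inflammatory changes was not tested. The call of C1qc was lost under 7 of the alternative fits and that of Cx3cr1 under 5. Reactive astrocyte genes rose in 12 of 35 cases and fell in 7, with Cd14, a receptor component for bacterial lipopolysaccharide that microglia also express (1.6 ± 0.07), and Ptx3 (0.7 ± 0.04) among the rises. Gfap (0.04), Vim (0.05) and Lcn2 (0.11) did not pass. Among 24 genes of astrocyte transport and coupling 8 rose and 2 fell. The gap junction gene Gjb2 stood at 7.81, 8.01 and 9.45 CPM in stimulated libraries, against 0.696, 1.66 and 2.3 CPM in unstimulated libraries (log2 change 2.37 ± 0.16, edgeR adjusted p = 2.62e-15), and the potassium channel genes Kcnk10 (1.07 ± 0.05) and Kcnk1 (0.87 ± 0.04) rose. Kcnj10, the main inward rectifier of astrocytes, fell slightly (-0.21 ± 0.03), the glutamate transporter Slc1a3 rose slightly (0.23 ± 0.03), and its relative Slc1a2 had a log2 change of 0.00 and did not pass. Fgfr3, an astrocyte marker, fell (-0.59 ± 0.05), as did Pdgfrb, a marker of fibroblasts and pericytes (-0.93 ± 0.06), while the meningeal transcription factor gene Foxc1 rose (1.27 ± 0.05).

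The response was tested in cells with and without the biosensor switched on. With Cre virus 2583 genes were called (14.3%) and with empty virus 2654 (14.7%), 3 libraries against 3 in each. Of 540 genes called at least 2-fold with Cre virus, 479 were called in the same direction with empty virus and 532 had the same sign. Conversely, of 541 such genes with empty virus, 466 were called and 533 had the same sign with Cre virus. The difference between the responses passed for no gene by edgeR (0%) or by DESeq2. An unadjusted edgeR p under 0.05 was found for 631 of the 18103 genes tested. If no gene differed and the p-values were evenly spread, that share would be 0.05. The share found was smaller, which does not measure agreement between the responses. Fos had log2 changes of 2.82 ± 0.06 with Cre virus and 2.81 ± 0.06 with empty virus, Sik1 of 3.33 ± 0.16 with Cre virus and 3.47 ± 0.17 with empty virus, and Arc of -3.41 ± 0.11 with Cre virus and -3.21 ± 0.11 with empty virus. The named genes with an unadjusted edgeR p under 0.05 for the difference were Crhbp, Adra1d, Trh, Rgs2, Calcb and Adra1b. Crhbp (unadjusted p = 0.000293) had no reads in the 3 unstimulated libraries with empty virus, so no change is given for it there. Trh had 7.14 ± 0.76 with Cre virus and 4.98 ± 0.48 with empty virus (unadjusted p = 0.0136), and Calcb 6.89 ± 1.6 with Cre virus and 3.99 ± 0.73 with empty virus (unadjusted p = 0.0284). Adra1d had -1.25 ± 0.11 with Cre virus and -0.84 ± 0.11 with empty virus (unadjusted p = 0.0128), Rgs2 2.22 ± 0.06 with Cre virus and 2.02 ± 0.06 with empty virus (unadjusted p = 0.0246), and Adra1b 0.21 ± 0.14 with Cre virus and -0.23 ± 0.14 with empty virus (unadjusted p = 0.0303). A test that misses its threshold does not show that the responses were equal.

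The astrocyte response was set against that of the study's 36 lung fibroblast libraries, 12 each from mice heterozygous for the Gai*-, Gaq*- or Ga13*-BERKY3 allele. Those cells had received TRAP-6 at 100 µM for 90 min, a peptide agonist of the thrombin receptor PAR1, or medium alone. In a fit of all 48 libraries, 1482 of 19316 genes had a higher response in astrocytes than the mean of the 3 fibroblast lines (7.67%) and 1381 a lower one (7.15%), by edgeR's quasi-likelihood test. Cell type, agonist, receptor, medium, virus dose and biosensor all differ between the 2 sides and cannot be told apart. Of 4281 genes called in astrocytes and tested here, 2356 had a called difference of the same sign. These genes were chosen for their astrocyte change, which is itself part of the difference. The count is thus set in part by that choice and does not measure how particular the response is to astrocytes. For genes with few or no reads in fibroblasts, Cartpt among them, the fit gave no SE of the difference, and no difference is given.

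Several genes that fell in astrocytes had positive log2 changes in fibroblasts. Arc had log2 changes of 0.52, 0.62 and 0.75 in the Gai, Gaq and Ga13 fibroblasts, and its astrocyte response was lower by a log2 difference of -3.94 ± 0.11, adjusted p = 1.06e-27. Myc had 0.33, 0.5 and 0.65 in fibroblasts (difference -1.65 ± 0.06, adjusted p = 1.24e-30), Jun 0.47, 0.24 and 0.16 (-1.54 ± 0.12, adjusted p = 1.21e-12), and Srf 0.06, 0.25 and 0.43 (-1.26 ± 0.08, adjusted p = 1.39e-15). Klf7 (0.2, 0.47 and 0.5; difference -1.68 ± 0.09, adjusted p = 7.27e-20) and Vcl (0.16, 0.34 and 0.41; -1.31 ± 0.06, adjusted p = 5.03e-20) behaved likewise. Egr2 and Klf10 were negative on both sides, at -0.37, -0.25 and -0.21 and -0.28, -0.44 and -0.45 in fibroblasts, and lower in astrocytes by -1.23 ± 0.15, adjusted p = 3.76e-08 and -1.05 ± 0.07, adjusted p = 3.09e-16. Arrdc3 went the other way, with -0.63, -0.63 and -0.74 in fibroblasts and a difference of 3.29 ± 0.15, adjusted p = 1.55e-18, and so did Cebpb (-0.23, -0.23 and -0.37; difference 2.42 ± 0.1, adjusted p = 1.39e-20).

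Many genes that rose in astrocytes had smaller positive log2 changes in fibroblasts. Fos had 0.5, 0.61 and 0.64 (difference 2.23 ± 0.17, adjusted p = 1.89e-12), Nr4a2 0.79, 1.34 and 1.29 (3.75 ± 0.32, adjusted p = 1.75e-11), Rgs2 0.64, 1.19 and 1.05 (1.16 ± 0.18, adjusted p = 6.46e-06) and Gem 0.46, 0.58 and 0.54 (1.52 ± 0.12, adjusted p = 5.29e-12). The phosphodiesterases Pde4d and Pde10a and the kinase Sik1 had changes under 0.5 on the log2 scale in fibroblasts, Pde4d at -0.27, 0.14 and 0.09 (difference 2.92 ± 0.15, adjusted p = 8.32e-17), Pde10a at -0.07, 0.09 and 0.13 (1.56 ± 0.13, adjusted p = 9.69e-12) and Sik1 at 0.02, 0.43 and 0.32 (3.15 ± 0.09, adjusted p = 1.27e-24). The fall of Adrb1, at -0.05, -1.14 and -0.22 in fibroblasts, did not differ past the threshold (-0.86 ± 0.38, adjusted p = 0.165), nor did that of Gja3, at -1.95, -0.78 and -1.78 (-0.46 ± 0.57, adjusted p = 0.854). Kcnk10 rose in astrocytes by 1.07 and had 0.64, 1.96 and 1.93 in fibroblasts (difference -0.44 ± 0.17, adjusted p = 0.0681).

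**Figure D5:**
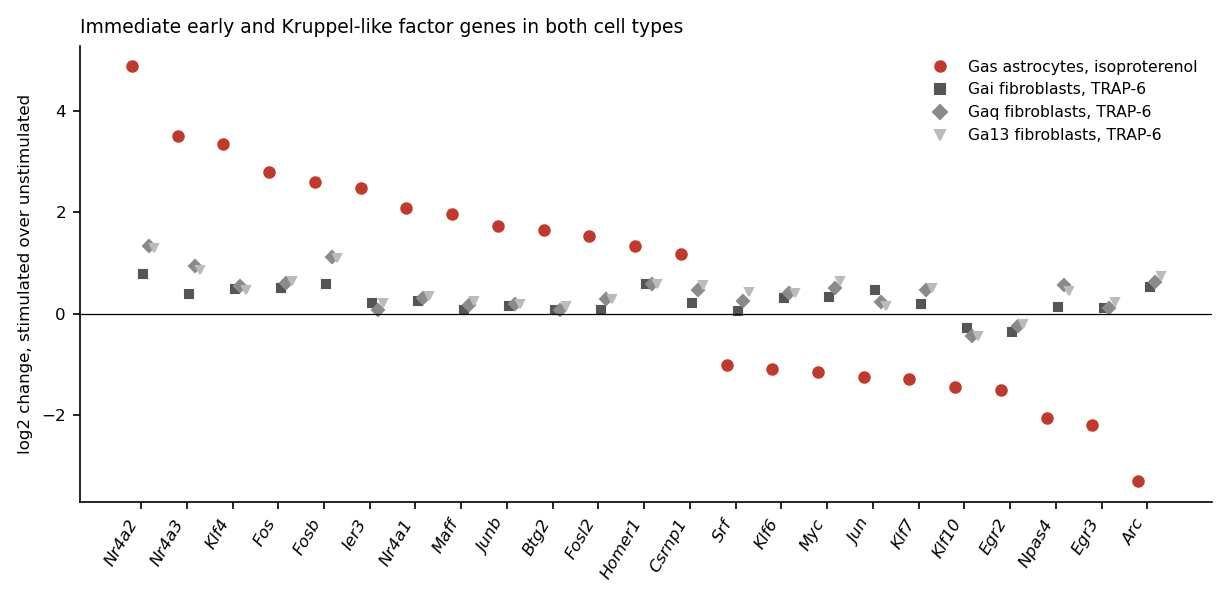
Log2 change, stimulated over unstimulated (y axis), of the named immediate early and Kruppel-like factor genes whose astrocyte-minus-fibroblast difference had an SE under 0.5. Red circles are Gas astrocytes given isoproterenol and grey symbols the Gai, Gaq and Ga13 fibroblasts given TRAP-6. All values are from the fit of all 48 libraries. At the right end Arc lies at -3.31 in astrocytes and at 0.52, 0.62 and 0.75 in the fibroblast lines.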

How the data were processed

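Poly-A selected RNA of 12 astrocyte libraries was sequenced, with 36 fibroblast libraries for comparison. The authors deposited raw gene counts, 1 table per biosensor line with 50764 gene entries, made with fastp, Subread and featureCounts on GRCm39 per the submitters' processing notes; versions and the strand setting are not given in the sources used here. Without strand, overlapping genes share reads, and such genes are marked in part from GENCODE M21 exons.

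Counts were tested with edgeR 4.0.16 (R 4.3.3, limma 3.58.1): TMM scaling, filterByExpr by group, robust quasi-likelihood fit of virus plus stimulation, two-sided, Benjamini-Hochberg adjusted p under 0.05. Responses per virus and their difference came from a fit of group means, and the comparison with fibroblasts from 1 fit of all 48 libraries. Levels are CPM over library totals. The biological coefficient of variation was 0.0675. The fits were tested on simulated data. Intervals of count ratios are exact binomial (95%) and cover counting error only.

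The 24 pathway and 9 marker lists were chosen with earlier results of these data known. Genes named with their SE are the 16 largest rises and 12 largest falls at a mean of at least 1 CPM, list members past 2-fold or otherwise up to 4 called, every member of the 7 lists from receptors to RGS proteins, and called markers. Some genes that this rule names are not reported here. Members given by a log2 change alone were chosen after their values were seen. Promoters are from RefSeq on GRCm38.p6, with those on chromosome 18 not used. Alternatives were RLE scaling, no filter, DESeq2 1.42.0, a non-robust fit, group means, a replicate block and each library left out. Leaving out both unstimulated replicate 2 libraries was chosen after seeing the data.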

Additional observations from a re-analysis of the deposited data

How the results depend on the processing

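No result reversed under any alternative, and the counts of called genes stayed within 1.5 times the main count. The response of 4282 genes (2156 rising, 2126 falling) became 4278 with RLE scaling, 4230 without the low-count filter, 4413 by DESeq2 and 3812 without both unstimulated replicate 2 libraries. Replicate numbers were not taken to pair the samples. Correlations of deviations between same-numbered libraries lay between -0.0182 and 0.101, 1 of 18 over 0.1. Those between libraries of other numbers lay between -0.111 and 0.0485. Both unstimulated replicate 2 libraries stood apart together on the first principal component. Both replicate 1 libraries with Cre virus did so on the second but lay at opposite ends of the third (-26.1 unstimulated, 27.7 stimulated). With the replicate block 4456 genes were called, 2729 with Cre virus, 2847 with empty virus and 0 for their difference, and 3564 differed from fibroblasts against 2863 without it. Leaving out each library gave 3812 to 4380 genes, 1948 to 2314 rising and 1864 to 2077 falling, 2219 to 2570 with Cre virus, 2059 to 3027 with empty virus, 0 for their difference and 2553 to 2779 against fibroblasts. Of 4408 values of named genes under alternatives, 58 lost and 20 gained the call; among the losses were Gjb6 (11), Grk3 (8), Rgs4 (8), C1qc (7), Rsph1 (6), Adra2a (5) and Cx3cr1 (5). Of 1216 list counts 37 moved by more than 1.5 times. With 3 libraries per group and totals from 16.3 M counts, genes of few counts have the widest errors, as in Cck (log2 change 2.12 ± 0.54).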
